A study of Mus musculus with 3 samples.

Results

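The 10 genes described here encode the 4 Notch receptors (Notch1, Notch2, Notch3 and Notch4), the 5 canonical ligands of the Delta-like and Jagged families (Dll1, Dll3, Dll4, Jag1 and Jag2) and Rbpj, the DNA-binding protein through which the pathway acts in the nucleus. They were taken by symbol from a table of 33101 gene names with a value, where each had 1 row. The tissue was dentate gyrus, the part of the hippocampus that holds the granule neurons and a stem cell niche, dissected from male C57BL/6 mice (strain label C57Black6) 8 to 10 weeks old and untreated as far as the labels say. The series held 1 wild-type group of 3 polyadenylated RNA libraries, and the table carried 1 value per gene for that group, so no value has a replicate error and no difference between genes could be tested. Values are FPKM, fragments scaled by transcript length and by the mapped total, which allows levels of different genes to be set side by side. Each row pairs a gene with 1 listed transcript, and nothing states whether its value belongs to the gene or to that transcript, a limit that weighs most where a noncoding or short form is listed. The 6 granule neuron markers Prox1, Calb1, C1ql2, C1ql3, Dsp and Plk5 all exceeded 10 FPKM, from 21.6 to 111 FPKM. Of all protein-coding names, 30.8% reached 10 FPKM. In dissected tissue, fewer cells of a type and less RNA per cell cannot be told apart.

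Notch signalling passes between touching cells. A ligand on 1 cell pulls on the receptor of its neighbour, proteases cut the receptor, and the freed intracellular domain enters the nucleus, where it joins RBPJ and a Mastermind coactivator to switch on genes of the Hes and Hey families; without that domain, RBPJ recruits corepressors to the same genes. In the adult dentate gyrus the pathway is best known for keeping radial glia-like stem cells undifferentiated, and Notch proteins also act in astrocytes, neurons and blood vessels.

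All 10 genes had a value above 0 and all were low to moderate. Of the 10, 6 reached 1 FPKM, a share close to the 56.4% of all 20135 protein-coding names and above the 39.6% of all names of any type. None reached 10 FPKM, against 30.8% of protein-coding names and 21.1% of all names. None was listed at 0, whereas 24.1% of protein-coding names were. Their median was 2.03 FPKM, against 2.46 FPKM over all protein-coding names, and it turned to 3.05 FPKM, above them, when the pseudogene copies of Rbpj described further on were added to Rbpj. The levels spanned 12.4-fold, with Notch2 highest and Rbpj lowest.

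**Figure D1:**
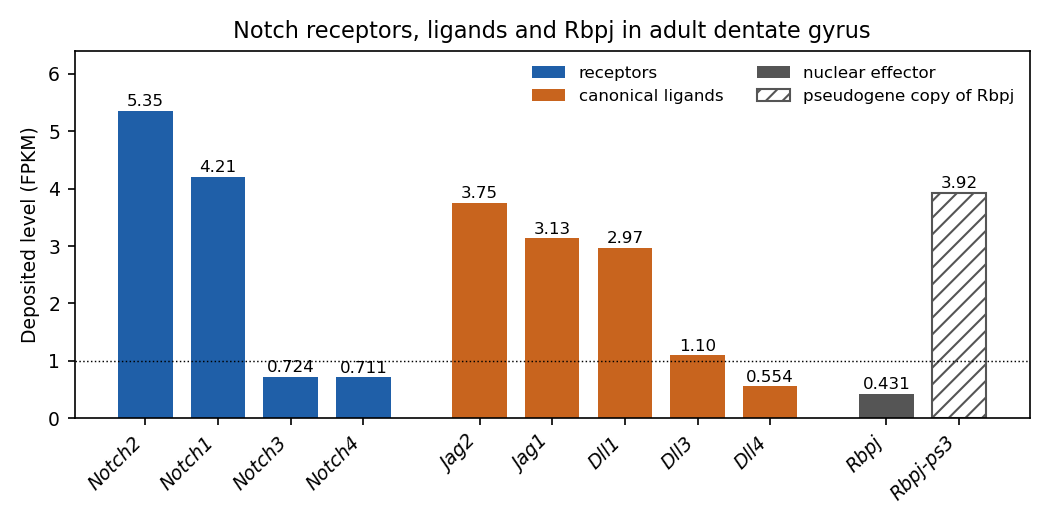
Deposited level in FPKM of each of the 10 genes, by role, with the pseudogene copy Rbpj-ps3 hatched; the dotted line marks 1 FPKM. Each bar is the authors' single value for the group, so there are no error bars. Notch2, Notch1, Jag2, Jag1 and Dll1 stand between 2.97 and 5.35 FPKM, while Notch3, Notch4, Dll4 and Rbpj lie under 1 FPKM.

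Among the receptors, Notch2 and Notch1 carried most of the message. Notch2 was at 5.35 FPKM, which made up 48.7% of the summed receptor level of 11.0 FPKM. Notch1, the receptor most often tied to maintenance of adult hippocampal stem cells, was at 4.21 FPKM, or 38.3% of the sum, and stood at 0.786 times Notch2. Both receptors are known from glia and progenitors as well as from neurons, and which cells carried them here was not tested. Notch3, the receptor of pericytes and vascular smooth muscle, was at 0.724 FPKM, and Notch4, known chiefly from endothelial cells, was at 0.711 FPKM. Notch3 and Notch4 together held 1.43 FPKM, so that the summed level of Notch1 and Notch2, 9.56 FPKM, was 6.67 times as high. Which cells carried Notch3 and Notch4 here was not tested either. Singly, Notch1 exceeded Notch3 by 5.82-fold and Notch4 by 5.92-fold, and Notch2 exceeded them by 7.40-fold and 7.53-fold. Notch3 and Notch4 differed by a ratio of 1.02, too little to order them without replicate values.

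Markers of the vascular cells in which Notch3 and Notch4 are best known varied in level, and some were listed at 0. The 8 endothelial markers had a median of 1.78 FPKM, and 7 of them (87.5%) reached 1 FPKM, but 4 reached 2 FPKM. Of all protein-coding names, 56.4% reached 1 FPKM. Ly6c1 at 15.5 FPKM and the tight junction gene Cldn5 at 7.96 FPKM were the highest, and Pecam1 was listed at 0. The 8 mural cell markers had a median of 1.20 FPKM, and 4 of them (50%) reached 1 FPKM, no more than the share of protein-coding names. The pericyte gene Rgs5 was at 8.22 FPKM, Pdgfrb at 3.65 FPKM, and the smooth muscle myosin gene Myh11 was listed at 0. The astrocyte list, whose cells are known to carry Notch1 and Notch2, had a median of 186 FPKM over 7 genes. That median is the value of Gfap, for which a noncoding form of 356 bases is listed, and it was 143 FPKM without such forms. The list of stem cell and progenitor genes had a median of 1.96 FPKM over 8 genes. The part of each cell type in the Notch levels was not tested.

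The receptors' promoters differed in sequence composition, shown here for the receptors with the most and the fewest CG dinucleotides, Notch2 and Notch4, as the 250 bases before the start site, with each CG dinucleotide in capitals. The Notch2 stretch lies at chr3:98013288-98013537 on the plus strand and the Notch4 stretch at chr17:34564045-34564294 on the plus strand, in RefSeq's GRCm38.p6, another build than that of the expression table.
Notch2: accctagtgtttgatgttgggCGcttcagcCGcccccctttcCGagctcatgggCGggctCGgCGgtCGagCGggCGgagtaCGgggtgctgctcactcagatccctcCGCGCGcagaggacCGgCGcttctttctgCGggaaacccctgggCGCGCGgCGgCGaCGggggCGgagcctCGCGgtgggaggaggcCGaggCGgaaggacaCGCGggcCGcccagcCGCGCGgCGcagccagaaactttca
Notch4: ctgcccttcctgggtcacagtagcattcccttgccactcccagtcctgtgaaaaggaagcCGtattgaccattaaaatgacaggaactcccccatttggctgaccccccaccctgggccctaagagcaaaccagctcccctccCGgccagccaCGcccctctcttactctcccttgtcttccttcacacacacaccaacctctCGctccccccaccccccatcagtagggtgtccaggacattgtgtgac
These 250 bases hold 34 CG dinucleotides before Notch2 and 4 before Notch4. In the whole promoter window of 300 bases, which adds 50 bases after the start site, the counts were 41 for Notch2, 23 for Notch1, 25 for Notch3 and 5 for Notch4. The median over all 32851 RefSeq promoter windows was 7, and 96.5% of windows held fewer CG dinucleotides than that of Notch2, against 38.0% for Notch4. All 10 genes had an entry, with 12 windows in all because Dll1 and Rbpj had a pair each, and 11 of the 12 lay above the median. Jag2 had the densest window of the 12, with 63 CG dinucleotides and a GC content of 86.0%. Windows with similar counts belonged to genes of different level, as for Notch3 at 0.724 FPKM and Notch1 at 4.21 FPKM.

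The 5 canonical ligands summed to 11.5 FPKM, 1.05 times the receptor sum. Jag2 was at 3.75 FPKM, Jag1 at 3.13 FPKM and Dll1 at 2.97 FPKM. These 3 ligands, which activate receptors on adjacent cells, lay within a narrow band, with a ratio of Jag1 to Jag2 of 0.835 and of Jag1 to Dll1 of 1.06, and their order is uncertain without replicate values. Dll3, a divergent ligand known in mouse to act inside the same cell as an inhibitor rather than as an activator, was at 1.10 FPKM, just above the 1 FPKM line. Dll4, the ligand of sprouting endothelial tips, was lowest at 0.554 FPKM. Dll1 exceeded Dll3 by 2.70-fold and Dll4 by 5.35-fold, and Jag1 exceeded Dll4 by 5.65-fold. The Jagged pair summed to 6.88 FPKM and the 3 Delta-like genes to 4.62 FPKM, a ratio of 1.49. Thus most of the ligand sum lay in 3 of 5 genes, which held 32.6%, 27.2% and 25.8% of it. Most of the receptor sum lay in 2 of 4 genes, which held 48.7% and 38.3%. The families differ in size, so these shares do not show that either was more concentrated. Notch2 exceeded Jag1 by 1.71-fold.

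Set on the scale of the whole transcriptome, the 10 genes fell by deposited level into an upper and a lower group of 5 each. Notch2 exceeded 58.8% of protein-coding names, Notch1 55.5%, Jag2 54.1%, Jag1 52.3% and Dll1 51.8%. The lower group ran from Dll3, above 44.2% of names, through Notch3 at 41.7%, Notch4 at 41.6% and Dll4 at 40.3% to Rbpj at 39.0%. The place of Rbpj is uncertain: with its pseudogene copies added, it exceeded 56.0% of protein-coding names and joined the upper group. The largest step between neighbours in the order was the 2.70-fold one between Dll1 and Dll3. Since many protein-coding names were at or near 0, the places depended on which names were counted. Among names at 0.1 FPKM or more, Notch2 exceeded 38.3%, Dll1 27.8% and Rbpj 8.66%.

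**Figure D2:**
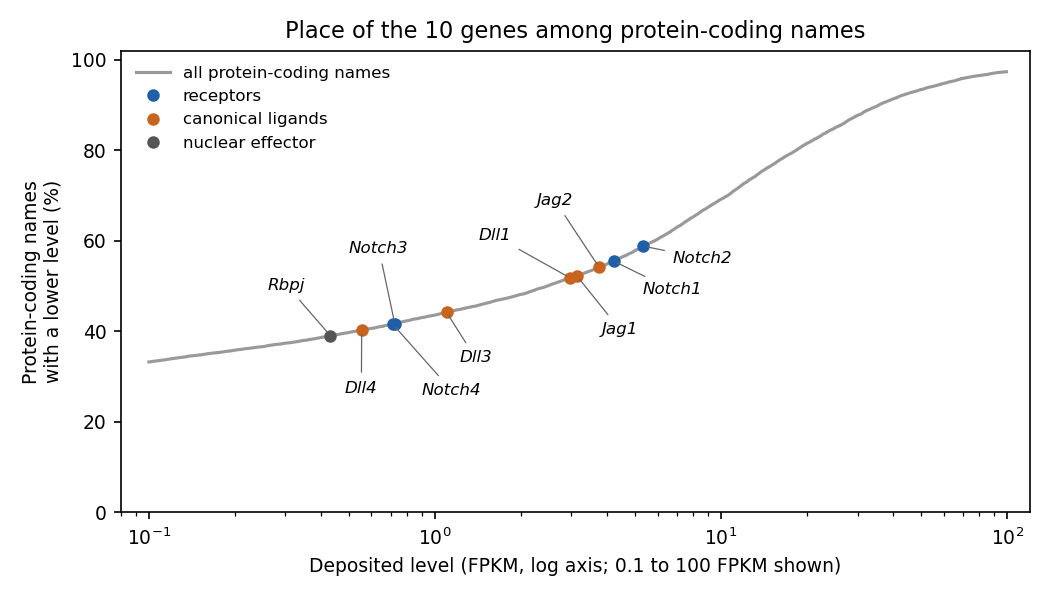
Percentage of protein-coding names with a lower level (vertical axis) against deposited level in FPKM (horizontal log axis, 0.1 to 100 FPKM); the grey line is all protein-coding names and the points are the 10 genes, coloured by role. The points lie between 39.0% and 58.8%, in an upper and a lower group of 5, with Rbpj drawn at its deposited value without the pseudogene copies.

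In the table's mm9 coordinates, the transcript listed for Notch2 spans 97817461 to 97954290 on chromosome 3, and that for Notch1 26313423 to 26359342 on chromosome 2. Jag1 and Dll4 also lie on chromosome 2, and Dll1, Notch3 and Notch4 on chromosome 17, so that 6 of the 10 genes share 2 chromosomes. The table lists 1 transcript for each gene, and 8 of these were found by identifier in GENCODE M21. All 8 were protein-coding forms, and that of each gene but Rbpj was its longest coding transcript there. Those of Notch1, Notch3 and Notch4 have 34, 33 and 30 exons and 7593, 6954 and 5892 coding bases, the repeated epidermal growth factor modules taking most of that length. Those of Jag1 and Jag2 have 26 exons each, and those of Dll1 and Dll4 have 11 each. The identifiers listed for Notch2 and Dll3 were not matched, and their lengths are not used here.

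Genes on the opposite strand overlapped the spans of 4 members, and since no strand-marking step appears in the protocol, reads from the shared stretch cannot be told apart. Notch1 overlapped 0610009E02Rik, at 1.46 FPKM, by 1477 bases, and Gm13568, at 0.0547 FPKM, by 414 bases. Notch3 overlapped Gm17276, at 0.152 FPKM, and Dll1 overlapped A930024N18Rik, at 0.423 FPKM, each on the other strand. A row overlapping Notch4 held no value. Every overlapping row with a value was below its Notch partner. Of the words of 30 bases in the Notch1 transcript, 14.1% also occurred, on either strand, in GENCODE M21 transcripts of other genes. The share was 16.0% for Dll1, 6.86% for Notch3, 4.98% for Dll4, 4.42% for Notch2, 0.618% for Dll3, 0.0591% for Jag2 and 0.0179% for Jag1, and it was 0 for Notch4; for Notch2 and Dll3 the longest coding transcript stood in for the listed one.

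Rbpj had the lowest deposited level of the 10 genes, 0.431 FPKM, or 0.102 times Notch1 and 0.0806 times Notch2. The nuclear partner of all 4 receptors thus stood below each of them. This value is uncertain, because the table also holds a near-identical copy. Rbpj-ps3, a processed pseudogene of Rbpj on chromosome 6 (46479350 to 46480921 in mm9), was at 3.92 FPKM under its older symbol Rbpsuh-rs3, 9.09 times Rbpj itself. The Rbpj-ps3 transcript of 1441 bases aligned without gaps inside the 1455-base coding region of Rbpj and differed from it at 4 positions, an identity of 99.7%. A stretch of 120 bases from each, taken from GENCODE M21 transcripts (positions 960 to 1079 of the Rbpj transcript and 890 to 1009 of the Rbpj-ps3 transcript), shows how few letters separate the 2 rows, with the 2 differing positions in capitals.
Rbpj: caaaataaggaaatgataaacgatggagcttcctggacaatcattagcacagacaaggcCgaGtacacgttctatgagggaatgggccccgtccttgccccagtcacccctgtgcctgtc
Rbpj-ps3: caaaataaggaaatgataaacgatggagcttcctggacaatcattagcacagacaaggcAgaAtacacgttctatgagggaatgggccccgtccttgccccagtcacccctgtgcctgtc
Of the Rbpj words of 30 bases, 25.8% also occurred in other genes, and 25.3% in Rbpj-ps3. A shorter pseudogene, Rbpj-ps1, was listed at 0. The division of reads between Rbpj and Rbpj-ps3 is therefore uncertain, and whether reads of Rbpj were assigned to the copy was not tested. With both copies added, the sum was 4.35 FPKM, of which the Rbpj row made up 9.91%, and this sum was 1.03 times Notch1 and 0.813 times Notch2. Adding FPKM of transcripts of unequal length is approximate. Rbpjl, a paralog of Rbpj known mainly from pancreas, was at 0.182 FPKM, with a retained-intron form listed.

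Genes whose products modify, cut and move Notch receptors had higher list medians than the receptors themselves. The 5 glycosylation genes had a median of 7.40 FPKM, and all reached 1 FPKM, against 56.4% of protein-coding names. Pofut1, which adds the O-fucose on which Fringe enzymes build, was at 4.86 FPKM and the O-glucosyltransferase gene Poglut1 at 17.2 FPKM. The Fringe genes, whose enzymes extend O-fucose and change which ligands a receptor favours, were unequal. Rfng was at 33.2 FPKM, Lfng at 7.40 FPKM and Mfng at 1.42 FPKM. Rfng exceeded Lfng by 4.48-fold and Lfng exceeded Mfng by 5.22-fold, with a noncoding form listed for Rfng.

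The 10 receptor protease genes had a median of 9.76 FPKM, and all were at 1 FPKM or more, against 56.4% of protein-coding names. Furin, the convertase that cuts the newly made receptor, was at 8.48 FPKM. Of the sheddase genes, Adam10, whose product makes the ligand-dependent cut, was at 17.6 FPKM. It exceeded Adam17, at 3.67 FPKM, by 4.78-fold. Of the gamma-secretase complex, which releases the intracellular domain, Psen2 was at 8.20 FPKM. Ncstn was at 26.0 FPKM, Aph1a at 11.1 FPKM and Psenen at 11.0 FPKM. The close paralogs Aph1b and Aph1c were at 6.11 and 2.16 FPKM, and the division of reads between them is uncertain. The transcripts listed for Furin, Adam10 and Ncstn are noncoding or decay-targeted forms, and that for Psen2 is a fragment of 232 bases, so their FPKM carry this limit. On a scale of FPKM times transcript length, Adam10 exceeded Adam17 by 2.91-fold.

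Genes for ligand endocytosis, the step that generates the pull on the receptor, had the highest median of the pathway lists, 52.6 FPKM over 6 genes. The ubiquitin ligase genes Mib1 and Mib2 were at 24.6 and 31.0 FPKM, and Neurl1a was at 74.1 FPKM. The epsin genes Epn1 and Epn2, general adaptors of clathrin uptake that serve many cargoes, led the list at 211 and 77.5 FPKM, and Neurl1b was lowest at 9.56 FPKM. The 9 genes of receptor traffic and turnover had a median of 22.6 FPKM, and all were at 1 FPKM or more, against 56.4% of protein-coding names. Dtx3, of the Deltex ubiquitin ligase family, was highest at 89.2 FPKM, followed by the endocytic kinase gene Aak1 at 41.2 FPKM, and Dtx2 was lowest at 2.21 FPKM. Numb, an inhibitor of Notch in many cell types, was at 8.53 FPKM and its relative Numbl at 36.3 FPKM. The ratio of Numb to Numbl was 0.235 but turned to 1.83 on the scale of FPKM times length, with a noncoding form of 456 bases listed for Numbl. The ratio of Mib1 to Mib2 likewise turned, 0.794 as FPKM and 3.69 on the scale with length, with a noncoding form listed for Mib2.

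**Figure D3:**
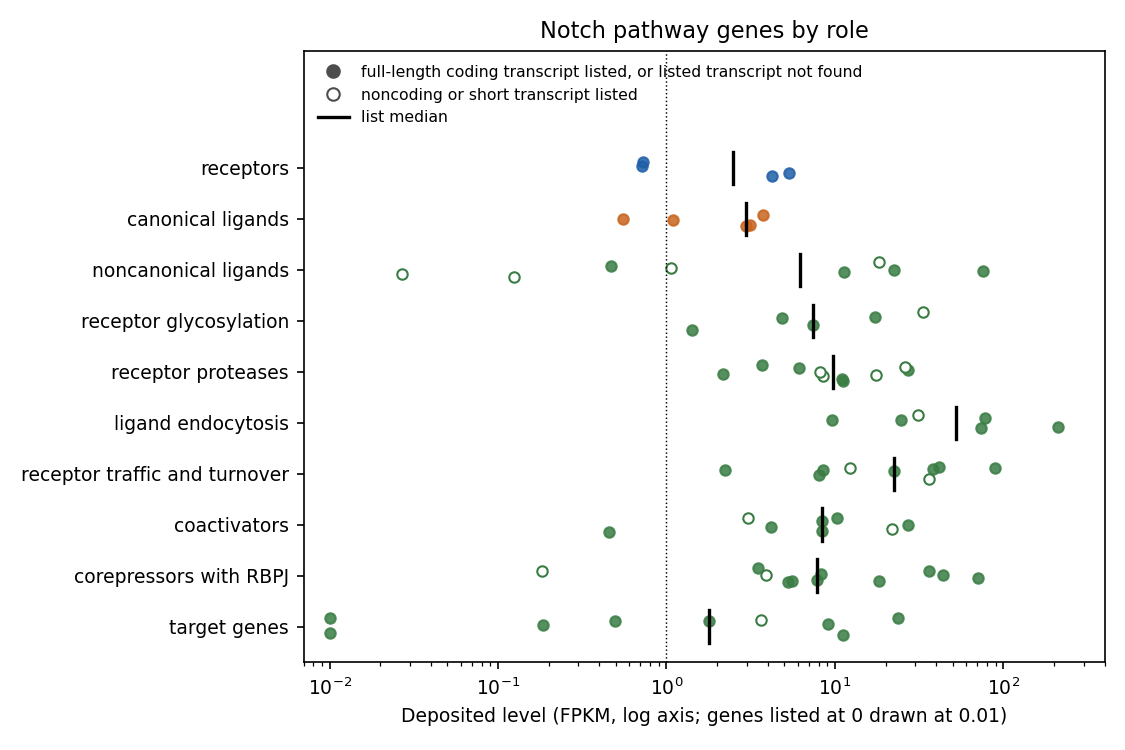
Deposited level in FPKM (horizontal log axis) of each gene of the Notch pathway, by role; black bars are list medians, open points are genes whose listed transcript was noncoding or under 0.5 of the longest coding one, and genes listed at 0 are drawn at 0.01. The receptor and ligand medians, 2.47 and 2.97 FPKM, lie left of the other medians drawn except that of the target genes, 1.78 FPKM.

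Of 8 genes for ligands outside the Delta-like and Jagged families, 4 exceeded 10 FPKM, above every canonical ligand. Cntn1, a neuronal adhesion molecule, was at 75.6 FPKM. Dner, a neuronal transmembrane protein with repeats like those of Delta, was at 22.6 FPKM, 7.21 times Jag1, or 4.66 times on the scale of FPKM times length. Egfl7, a secreted endothelial factor, was at 18.4 FPKM with a short form of 367 bases listed. Dlk2 was at 11.3 FPKM, whereas its relative Dlk1, an imprinted inhibitor of Notch, was at 0.125 FPKM with a retained-intron form listed. Cntn6 was at 1.06 FPKM, Nov at 0.467 FPKM and the matrix gene Mfap5 at 0.0268 FPKM. Short forms of 673 and 328 bases are listed for Cntn6 and Mfap5. In all, 5 of these 8 genes (62.5%) reached 1 FPKM, against 56.4% of protein-coding names, of which 30.8% reached 10 FPKM. Each has roles apart from Notch, and the list does not measure signalling.

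In the nucleus, 7 of 8 coactivator genes and 10 of 11 genes of the corepressor list reached 1 FPKM, against 56.4% of protein-coding names. The corepressor list includes Rbpjl, a paralog of Rbpj rather than one of its corepressors. The Mastermind genes, whose proteins clamp the receptor domain onto RBPJ, were unequal, with Maml2 at 10.2 FPKM and Maml3 at 4.18 FPKM. Maml1 was at 0.454 FPKM, the lowest of the coactivators and next to Rbpj in level. Snw1, a splicing factor that also binds RBPJ, was at 27.3 FPKM and led the coactivators, followed by the acetyltransferase gene Kat2a at 21.8 FPKM, with a noncoding form listed. Among the corepressors, Ctbp1, whose product serves many transcription factors, was highest at 70.4 FPKM. The lowest gene of the corepressor list was Rbpjl, given above. The list medians were 8.41 FPKM for coactivators and 7.81 FPKM for corepressors with Rbpjl counted, close to each other.

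The target genes ranged widely, from listed at 0 to 23.6 FPKM. Hey1 was highest at 23.6 FPKM, followed by Nrarp, a feedback inhibitor of the Notch complex, at 11.1 FPKM. Hes5, a target typical of neural stem cells and of astrocytes, was at 9.16 FPKM. Hes1 was at 3.63 FPKM, with a noncoding form of 344 bases listed, and Hey2 was at 1.78 FPKM. Heyl at 0.497 FPKM and Hes7, known from the somite clock, at 0.186 FPKM were below 1 FPKM, and Hes2 and Hes3 were listed at 0. Hence 5 of 9 target genes (55.6%) reached 1 FPKM, close to the 56.4% of all protein-coding names, and their median was 1.78 FPKM. Hey1 exceeded Hey2 by 13.3-fold. It exceeded Heyl by 47.5-fold, by 25.4-fold on the scale of FPKM times length and by 16.5-fold with a pseudocount of 1 FPKM. Hes5 exceeded Hes1 by 2.52-fold, or by 9.34-fold on the scale of FPKM times length. Hey1, Nrarp and Hes5 thus exceeded every receptor and canonical ligand. These genes also respond to other pathways, and their levels do not measure Notch activity.

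**Figure D4:**
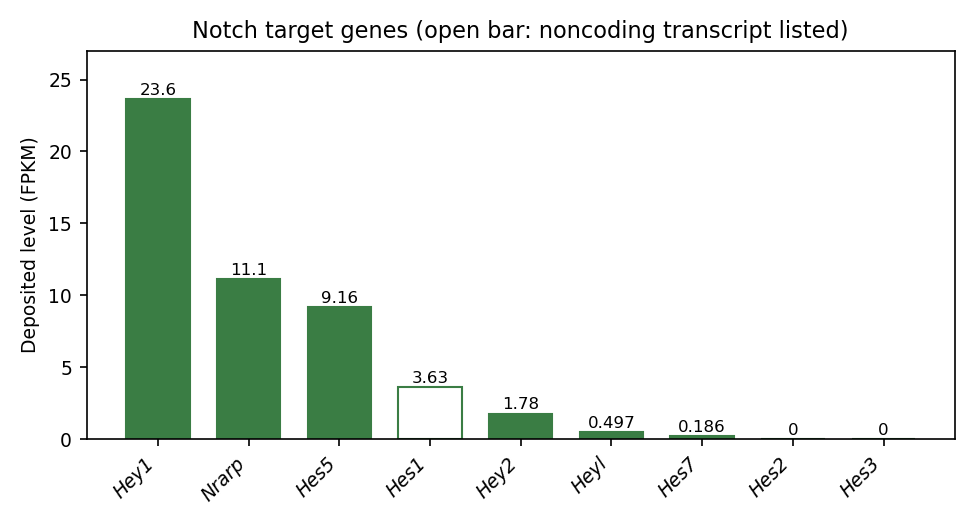
Deposited level in FPKM of 9 Notch target genes, in descending order; bars are single values with no error, and the open bar marks a gene with a noncoding transcript listed. Hey1 stands at 23.6 FPKM, and 4 genes, Heyl, Hes7, Hes2 and Hes3, lie under 1 FPKM.

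RBPJ binds DNA at the core GTGGGAA, and the promoters of 3 target genes are shown because they hold this word. Each stretch is the 250 bases before the start site in RefSeq's GRCm38.p6, with matches on either strand in capitals, those on the opposite strand reading TTCCCAC. The stretches lie at chr4:154960673-154960922 (plus strand) for Hes5, at chr11:69120203-69120452 (plus strand) for Hes7 and at chr10:30842784-30843033 (minus strand) for Hey2.
Hes5: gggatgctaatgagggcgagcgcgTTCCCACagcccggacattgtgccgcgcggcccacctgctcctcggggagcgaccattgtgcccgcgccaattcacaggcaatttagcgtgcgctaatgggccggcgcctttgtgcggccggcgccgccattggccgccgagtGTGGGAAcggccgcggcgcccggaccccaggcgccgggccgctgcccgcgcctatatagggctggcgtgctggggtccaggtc
Hes7: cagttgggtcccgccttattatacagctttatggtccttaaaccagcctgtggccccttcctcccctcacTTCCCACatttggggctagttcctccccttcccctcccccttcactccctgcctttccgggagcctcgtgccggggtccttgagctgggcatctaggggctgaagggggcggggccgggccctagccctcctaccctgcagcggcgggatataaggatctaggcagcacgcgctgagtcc
Hey2: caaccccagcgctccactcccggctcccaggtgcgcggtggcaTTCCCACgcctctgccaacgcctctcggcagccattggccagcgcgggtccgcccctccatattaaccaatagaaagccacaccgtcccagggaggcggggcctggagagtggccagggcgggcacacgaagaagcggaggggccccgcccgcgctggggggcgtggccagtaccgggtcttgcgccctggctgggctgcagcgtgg
Hes5 has a pair of matches in opposite orientation, beginning 226 and 83 bases before the start site. Hes7 has 1 match, beginning 180 bases before it. Hey2 has 1 match beginning 207 bases before the start site and another, not shown, that begins 4 bases before it and crosses it. Of the 9 target genes, 4 had a promoter entry, namely these 3 and Nrarp, which holds no match. By comparison, 6.38% of all 32851 windows of 300 bases hold the word on either strand and 0.256% hold it more than once. The word was not found in the 12 windows of the 10 receptor, ligand and Rbpj genes. The shorter word TGGGAA, which every GTGGGAA contains, was found in the windows of Rbpj alone among them, against 25.6% of all windows. The 3 promoters with the word belonged to genes at 9.16, 1.78 and 0.186 FPKM, and Nrarp, without it, was at 11.1 FPKM. A match in these letters is not a measured binding site.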

How the data were processed

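Polyadenylated RNA was made into random-primed cDNA libraries for Illumina HiSeq sequencing, per the labels' protocols. TopHat and Cufflinks with mm9 and NCBIM37 were used, per the submitters' processing notes, which state no versions. The authors deposited FPKM values, 1 column for the group of 3 libraries, in a table of 37681 rows, of which 36469 hold a value. Nothing states whether libraries were pooled or averaged. The depth is unknown, so no interval or detection limit is given.

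Values of rows with the same name were added up, which touched none of the 10 genes. Gene pairs are ratios without a pseudocount, and lists are described by their median and by the number of genes at 1 FPKM or more. With 1 value per gene, no test was possible, and none of the planned comparisons per library was run. The genes, the 19 lists and the 25 pairs were chosen with earlier results of these data known. The text names all members, all genes of the pairs and of the lists of noncanonical ligands, glycosylation, proteases and targets, and the 2 highest and the lowest of the other pathway lists. Some genes that this rule names are not reported here. Marker genes are named in part, and the remaining names were chosen after their values were seen. Gene types and transcripts came from GENCODE M21 by identifier, and promoters from RefSeq (GRCm38.p6) by symbol. Shared sequence was measured as words of 30 bases on either strand. A planned comparison of protein sequences was not run. Adding up of shared names, the percentiles, the list summaries and the motif search were tested on made-up data. The Rbpj alignment and the searches for shared words and overlaps were not. Python 3.11.15, pandas 2.3.3, numpy 2.4.6 and matplotlib 3.10.9 were used.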

Additional observations from a re-analysis of the deposited data

How the results depend on the processing

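Over 85 results and 293 alternative values, 245 stayed within 1.5 times the reported value and in its direction, 45 moved by more and 3 reversed. Adding the pseudogene copies to Rbpj, chosen after the data were seen, reversed the ratio of Rbpj to Notch1 (1.03) and moved that to Notch2 (0.813) and the median of the 10 genes (3.05 FPKM). Numb to Numbl (1.83) and Mib1 to Mib2 (3.69) reversed on the scale of FPKM times transcript length. Both reversals follow by construction from the listed lengths, 3549 against 456 bases and 10231 against 2202 bases. Which scale is closer to the true levels was not tested. Multiplying by length also moved 7 ratios, among them Jag1 to Dll1 (1.65), Rbpj to Notch1 (0.0567), Hey1 to Heyl (25.4) and Dner to Jag1 (4.66). A pseudocount of 1 FPKM, which shrinks ratios of low genes by construction, moved 11 ratios, among them Notch1 to Notch3 (3.02) and to Notch4 (3.04), Notch2 to Notch3 (3.69) and to Notch4 (3.71), Jag1 to Dll4 (2.66), Dll1 to Dll4 (2.55), and Rbpj to Notch1 (0.275) and to Notch2 (0.225). With a threshold of 0.5 FPKM, 9 of the 10 genes passed instead of 6, and 4 receptors instead of 2. At 2 FPKM, 5 of the 10 passed. With the pseudogene copies added to Rbpj, 7 of the 10 reached 1 FPKM. Shares over all names were not computed at 0.5 or 2 FPKM. Means of log2 values in place of medians gave 1.87 FPKM for canonical ligands, 2.91 FPKM for noncanonical ones, 78.1 FPKM for astrocyte markers and 0.635 FPKM for choroid plexus and ependyma. Without noncoding or short listed transcripts, fewer genes remained by construction: 3 noncanonical ligands and 6 proteases reached 1 FPKM, and the medians were 16.9 FPKM for noncanonical ligands and 1.14 FPKM for targets. Without genes listed at 0, the target median was 3.63 FPKM. Keeping the highest row for shared names could not change the 75 values it was applied to, because each listed gene had 1 row. These 75 are among the 245 that stayed, so they carry no information on stability. Leaving out genes listed at 0 likewise could not change a list that holds none. The same holds for leaving out noncoding or short listed transcripts where a list has none. Such values are also among the 245, which is therefore not a measure of stability.

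No paired analysis was possible because the series has 1 group and 1 column of values, and leaving out replicates could not be run for the same reason. The unknown depth limits most the genes under 1 FPKM, namely Notch3, Notch4, Dll4 and Rbpj.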

Other observations

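Some target genes share sequence with transcripts that have no value in the table. Of the words of 30 bases in the Nrarp transcript, 78.3% also occurred in transcripts of Gm38287, and 28.1% of those of Hes5 occurred in Gm20421. For Hey1, Hey2, Heyl and the short Hes1 form the share was 0. Whether reads of Nrarp or Hes5 were affected was not tested.

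Markers of the cell types in which Notch signalling is best known differed in level within each list. Among stem cell and progenitor genes, Hopx was at 95.9 FPKM, Sox2, also expressed by astrocytes, at 14.1 FPKM, and Nes at 0.989 FPKM with a retained-intron form listed. Mki67, a marker of dividing cells, was at 0.296 FPKM. Among astrocyte genes, Slc1a3 was at 192 FPKM and Sox9 at 0.925 FPKM. Markers of the oligodendrocyte lineage and of microglia had medians of 21.6 and 15.1 FPKM. Of 5 markers of choroid plexus and ependyma, with a median of 1.46 FPKM, 3 (60%) reached 1 FPKM, close to the 56.4% of protein-coding names.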
